A study of Homo sapiens with 4 samples.

Results

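The cytosolic ribosomal protein genes encode the protein part of the ribosome that translates nuclear mRNAs, and their noncoding transcripts were followed here in oxaliplatin-resistant and wild-type cells. Members were the transcripts of the deposited table whose GENCODE release 29 gene is protein-coding and carries a name built from RPL or RPS and a number, with the usual letter suffixes, together with *RPLP0*, *RPLP1*, *RPLP2* and *RPSA*. The ribosomal S6 kinases and genes on the X or Y chromosome were left out. Of 87 genes with a fitting name, 6 lay on X or Y, and 5 of the other 81 (*RPL10L*, *RPL26L1*, *RPL31*, *RPL36AL* and *RPL39L*) had no transcript in the table used here. The remaining 76 genes had 297 of the table's 106179 transcripts. By name alone, 45 of the genes were assigned to the large and 31 to the small ribosomal subunit. Release 29 classed 222 of the 297 transcripts as retained_intron and 75 as processed_transcript.

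Resistant cells were labelled HepG2 cells resistant to oxaliplatin, a platinum drug that binds DNA, and the comparison group was wild-type HepG2, both from the liver cancer line of that name. Each group had 2 RNA-seq libraries made from total RNA and read in pairs of 150 bases. The labels state no treatment at harvest, no dose used in selection and no clone. Whether replicates were cultured separately is not given either, so a p-value covers only library-to-library spread, possibly of technical origin. The series asked which long noncoding RNAs differ between the cells, and ribosomal protein mRNAs were not analysed here.

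A retained-intron transcript is an alternative RNA of a coding gene that still carries intron sequence, and a processed transcript is one with no annotated reading frame. Ribosomal protein genes are short, very actively transcribed and rich in small introns, and many of those introns house small nucleolar RNAs (snoRNAs), which guide the chemical modification of ribosomal RNA and are released when the intron is removed. Several ribosomal proteins, among them the products of *RPL3*, *RPL10A*, *RPL12* and *RPS13*, are known to act on the splicing of their own transcripts in human cells or in the worm *Caenorhabditis elegans*.

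The libraries held 43473826 and 44063444 counts in resistant cells and 38113398 and 34898860 in wild type, so that both resistant libraries were deeper. The part of depth in the results was not tested. Ribosomal protein genes took 624156 and 588587 of them in resistant cells and 622640 and 593185 in wild type. Of 14 hepatocyte marker genes, 10 had a transcript in the table. These are noncoding transcripts, so their counts do not measure the mRNAs of the markers and cannot check the cell label. *AFP*, *AHSG*, *FGB*, *SERPINA1*, *TF* and *TTR* were at 0 in every library, *ALB* had a count of 8 in wild-type replicate 1 and 0 elsewhere, and *APOA2* had at most 4. Of those genes *CPS1*, a urea cycle enzyme, was the exception, with 2308 and 1724 counts in resistant cells and 2118 and 2338 in wild type. Summed over the list, hepatocyte markers had 39.2 to 53.1 counts per 1e6 in resistant cells and 55.8 to 67.1 in wild type. Of 9 fibroblast and endothelial markers, 8 were in the table and summed to 64.3 to 74.0 counts per 1e6 in resistant cells and 85.2 to 124 in wild type, almost all of it *VIM*, which encodes vimentin. The part of either list in the results below was not tested.

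Introns kept whole were looked for in the annotated sequence of the member transcripts. Among the 297 transcripts, 140 kept at least 1 annotated intron whole, 128 of them retained-intron transcripts. They held 143 distinct introns of 63 to 3505 bases (median 325), and all 143 began with GT and ended with AG. The sequences that follow are from GENCODE release 29 transcripts on GRCh38, written 5′ to 3′ on the strand of the gene. The first 6 introns lie in transcripts with high counts or the smallest p-values below, and capitals mark the GT and AG at their ends. The *RPL24* intron spans chr3:101686558-101686671 (minus strand) and the *RPS18* intron chr6:33276067-33276175 (plus strand). For *RPL35* the first 300 of 354 bases are given, chr9:124861610-124861909 (minus strand), so that its AG end is not shown. The introns of *RPS2* lie at chr16:1964629-1964806 and chr16:1962657-1962735 (minus strand), and that of *RPS9* at chr19:54206463-54206552 (plus strand).
RPL24 ENST00000464595: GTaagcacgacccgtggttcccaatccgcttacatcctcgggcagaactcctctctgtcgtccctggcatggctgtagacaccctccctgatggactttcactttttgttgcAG
RPS18 ENST00000474626: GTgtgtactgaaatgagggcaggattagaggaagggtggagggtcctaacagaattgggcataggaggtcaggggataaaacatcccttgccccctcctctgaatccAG
RPL35 ENST00000487431: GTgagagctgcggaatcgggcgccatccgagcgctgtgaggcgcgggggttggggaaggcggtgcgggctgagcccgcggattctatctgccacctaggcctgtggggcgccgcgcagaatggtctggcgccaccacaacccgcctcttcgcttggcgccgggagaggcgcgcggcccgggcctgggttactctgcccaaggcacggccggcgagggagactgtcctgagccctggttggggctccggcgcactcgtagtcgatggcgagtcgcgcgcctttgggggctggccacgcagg
RPS2 ENST00000533161, intron at 1964629: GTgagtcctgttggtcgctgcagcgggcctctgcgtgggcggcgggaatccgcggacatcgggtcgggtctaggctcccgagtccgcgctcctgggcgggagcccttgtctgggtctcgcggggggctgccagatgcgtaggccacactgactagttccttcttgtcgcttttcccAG
RPS2 ENST00000533161, intron at 1962657: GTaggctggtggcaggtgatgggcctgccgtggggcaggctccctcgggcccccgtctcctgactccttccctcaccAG
RPS9 ENST00000495002: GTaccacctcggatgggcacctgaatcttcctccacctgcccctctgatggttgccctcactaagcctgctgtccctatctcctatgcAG

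Some transcripts still carried a whole snoRNA. Annotated snoRNAs lay inside the exons of 48 member transcripts of 20 genes, 41 of them retained-intron and 7 processed transcripts. Capitals mark the snoRNA in the next intron. *SNORD18C* sits in the *RPL4* intron at chr15:66501106-66501374 (minus strand), in a transcript whose counts differed strongly between libraries of the same group.
RPL4 ENST00000567229: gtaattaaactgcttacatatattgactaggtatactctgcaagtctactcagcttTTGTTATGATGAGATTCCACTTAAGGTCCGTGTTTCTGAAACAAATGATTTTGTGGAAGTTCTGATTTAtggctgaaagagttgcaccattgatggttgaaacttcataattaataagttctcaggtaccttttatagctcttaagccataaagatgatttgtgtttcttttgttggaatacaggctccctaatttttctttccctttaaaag

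Retained-intron members had a median length of 722.5 bases, of which a median of 52.4% lay in exons of annotated mRNAs of the same gene. Processed transcripts had a median of 550 bases and 71.4%. Weighted by counts, 68.0% of the members' sequence was shared with mRNA exons, and 12 transcripts lay wholly within them. Reads from such exons do not tell a noncoding transcript from the mRNA, and how the authors' counting assigned them is not given in the sources used here. Ribosomal protein genes also have many near-identical processed pseudogenes, so single values are uncertain to that extent. Across the 276 members with a count, the share in mRNA exons and the level per length had a Spearman correlation of 0.25, a description over transcripts of the same 4 libraries that share genes and exons.

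Expressed as counts per kilobase of transcript and per 1e6 counts of the library, the highest level was that of *RPS18*, a protein of the small-subunit head, at 2265 ± 179 in resistant cells and 3133 ± 548 in wild type (SD, n = 2 libraries here and below). *RPL24*, which forms a bridge between the subunits, followed with 1635 ± 89.1 in resistant cells and 1689 ± 224 in wild type. *RPL7A* had 1587 ± 493 in resistant cells and 1538 ± 183 in wild type. The levels of *RPL24* and *RPL7A* were closer together than the spread of their libraries. Then came *RPL5*, a carrier of 5S ribosomal RNA, with 1074 ± 971 in resistant cells and 1610.3 ± 307 in wild type, and *RPL4*, which lines the exit tunnel of the large subunit, with 1084 ± 723 and 1551 ± 660.2. At the low end of the tested genes *RPS27L*, a paralogue of *RPS27* with a retained-intron transcript of 2944 bases, had 1.74 ± 0.558 in resistant cells and 0.636 ± 0.0591 in wild type. The 10 genes with the highest counts took 67.1% ± 3.24 of the members' counts in resistant cells and 68.4% ± 5.23 in wild type.

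Within the gene family the order of levels was much the same in all libraries. Log2 counts per 1e6 (CPM) of the 73 tested genes had correlations of 0.932 to 0.974 between libraries, whether of the same or of different groups. Over the 11989 tested genes of the table above 0 in every library, they were 0.896 to 0.921. The median absolute log2 ratio between the libraries of a group was 0.24 in resistant cells and 0.35 in wild type for the members, against 0.48 and 0.54 for all genes above 0 in both libraries. The genes compared were not matched to the members for level. CPM of gene sums here and below use as their base the summed counts of the tested genes, scaled by edgeR's trimmed mean of M-values.

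Ribosomal protein transcripts took a smaller share of everything counted in both resistant libraries. They took 1.44% and 1.34% of all counts in resistant libraries and 1.63% and 1.70% in wild-type libraries, with means of 1.39% ± 0.0707 and 1.67% ± 0.0467. In such bulk libraries, fewer cells with these RNAs, less of them per cell and more counts on other transcripts cannot be told apart. No test was made of this single value, since 2 libraries against 2 cannot give an exact two-sided permutation p below 0.33. Retained-intron members alone took 0.931% ± 0.00162 of all counts in resistant cells and 1.15% ± 0.0511 in wild type, and processed transcripts 0.455% ± 0.0690 and 0.518% ± 0.00440. Relative to the counts of protein-coding genes only, the family's share was 1.88% ± 0.113 in resistant cells and 2.38% ± 0.0833 in wild type.

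No single ribosomal protein gene passed the test of its summed noncoding transcripts. Of the 76 genes, 73 had enough counts to be tested, and *RPL36*, *RPL3L* and *RPS3A* did not. The edgeR quasi-likelihood test called 0 of the 73 at a Benjamini-Hochberg adjusted p under 0.05, as it called 0 of all 13745 genes (0%), and limma-voom also called 0 in both. At an unadjusted p under 0.05 there were 8 members (11%), against 8.67% of all tested genes. All 8 were lower in resistant cells, against 3.93% of all tested genes lower and 4.74% higher. DESeq2 called 4 members, *RPL35* (adjusted p = 0.000200), *RPS7* (0.00780), *RPS26* (0.00977) and *RPL7L1* (0.0349), which is 5.48% of the 73, against 4.7% of all genes it tested.

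Most members had a negative fold change all the same. The log2 fold change was below 0 for 57 of 73 members, or 78.1%, against 49.2% of all tested genes, and its median was -0.33 against 0.01 for all genes. Both resistant libraries lay below both wild-type libraries for 28 members (38.4%), against 20.5% of all genes. They lay above for 8 members (11.0%), against 22.5% of all genes, and the groups overlapped for 37. Large-subunit genes had 31 of 43 below 0 with a median of -0.31, and small-subunit genes 26 of 30 with a median of -0.33. The median was -0.38 in the 37 members at or above the members' median CPM and -0.29 in the 36 below it. With library totals in place of the scaling, the medians were -0.27 for members and 0.07 for all genes, and 53 of 73 members were below 0.

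**Figure D1:**
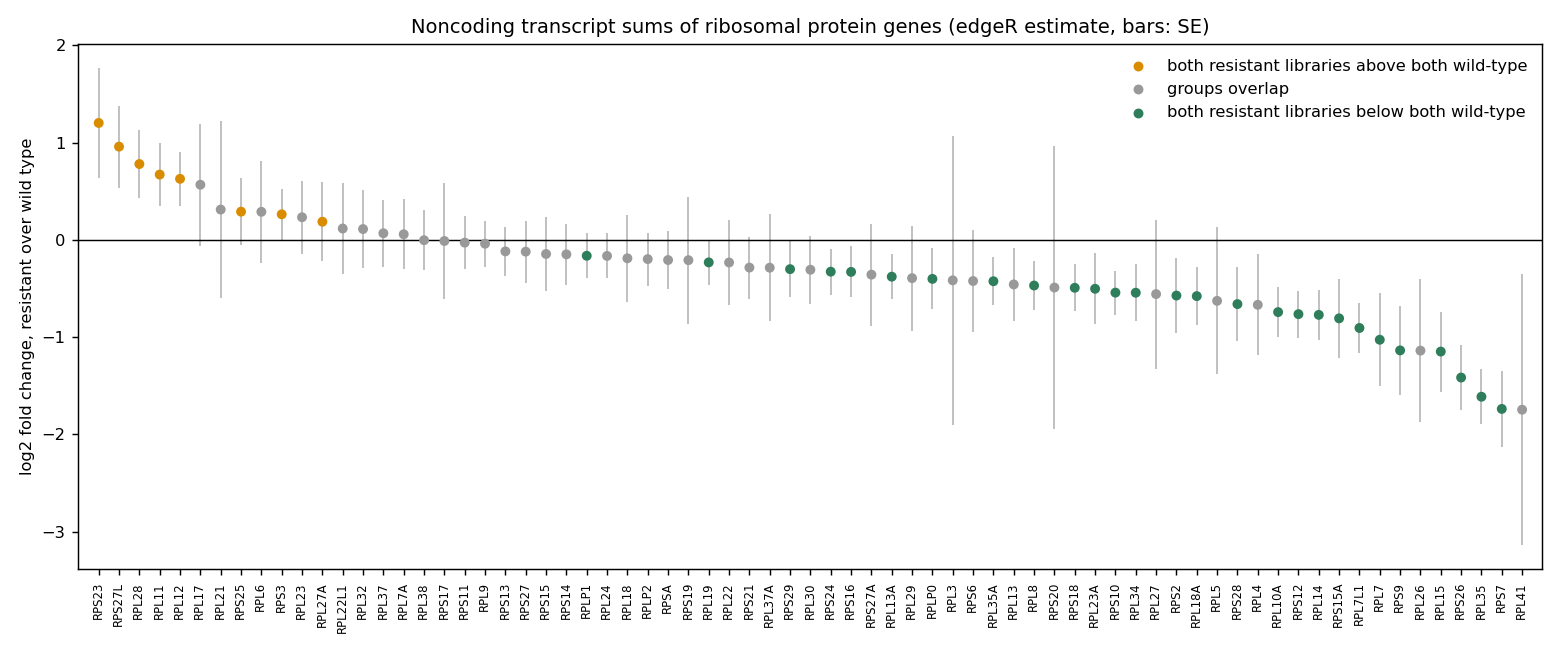
Log2 fold change (resistant over wild type) of the summed noncoding transcripts of tested ribosomal protein genes, ordered by size, with bars for the standard error of the edgeR estimate. Points are coloured by whether both resistant libraries lay above or below both wild-type libraries, and 57 of the 73 tested genes were below 0 (2 of the 73 are not drawn).

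Genes assigned by name to the large subunit with an unadjusted p under 0.05 in the edgeR quasi-likelihood test were *RPL35*, *RPL10A*, *RPL14* and *RPL7L1*. *RPL35*, whose product sits at the mouth of the exit tunnel, is at chr9:124857883-124861981 on the minus strand. It had 149 and 138 CPM in resistant cells and 371 and 507 CPM in wild type, a log2 fold change of -1.61 (SE 0.28, unadjusted p = 0.00575, adjusted p = 0.349). The resistant libraries were close to each other and both far below the wild-type libraries, which themselves differed. *RPL10A*, the protein of the L1 stalk through which spent tRNA leaves, is at chr6:35468408-35470785 on the plus strand and had 454 and 595 CPM in resistant cells and 842 and 912 CPM in wild type. Its log2 fold change was -0.74 (SE 0.26, unadjusted p = 0.0489, adjusted p = 0.573), and the groups did not overlap.

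*RPL14*, at chr3:40457303-40462368 on the plus strand, had 89.1 and 111 CPM in resistant cells and 176 and 166 CPM in wild type. The gap between the groups was wider than that within either, with a log2 fold change of -0.77 (SE 0.25, edgeR unadjusted p = 0.0426, adjusted p = 0.548). *RPL7L1*, a paralogue of *RPL7* at chr6:42879639-42887238 on the plus strand, had 34.1 and 37.6 CPM in resistant cells and 64.7 and 69.6 CPM in wild type. Libraries of a group were nearly alike and the groups were apart, with a log2 fold change of -0.91 (SE 0.26, edgeR unadjusted p = 0.0283, adjusted p = 0.491).

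In the small subunit the corresponding genes included *RPS7*, *RPS26* and *RPS12*. *RPS7*, whose product also binds MDM2, the ubiquitin ligase of p53, is at chr2:3575323-3580919 on the plus strand. It had 23.0 and 37.1 CPM in resistant cells and 86.2 and 114 CPM in wild type, with a log2 fold change of -1.74 (SE 0.39, edgeR unadjusted p = 0.0132, adjusted p = 0.393). *RPS26*, a protein of the mRNA exit channel, has a single transcript in the table, at chr12:56042140-56044223 on the plus strand, and had 12.9 and 13.3 CPM in resistant cells and 29.4 and 40.3 CPM in wild type. Its log2 fold change was -1.42 (SE 0.33, edgeR unadjusted p = 0.0153, adjusted p = 0.397). For both genes each resistant library was well below each wild-type library.

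*RPS12*, at chr6:132814569-132817564 on the plus strand, had 68.0 and 77.7 CPM in resistant cells and 122 and 126 CPM in wild type, with a log2 fold change of -0.76 (SE 0.24, edgeR unadjusted p = 0.0377, adjusted p = 0.528). Its groups did not overlap. *RPS12* also has a single transcript in the table.

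**Figure D2:**
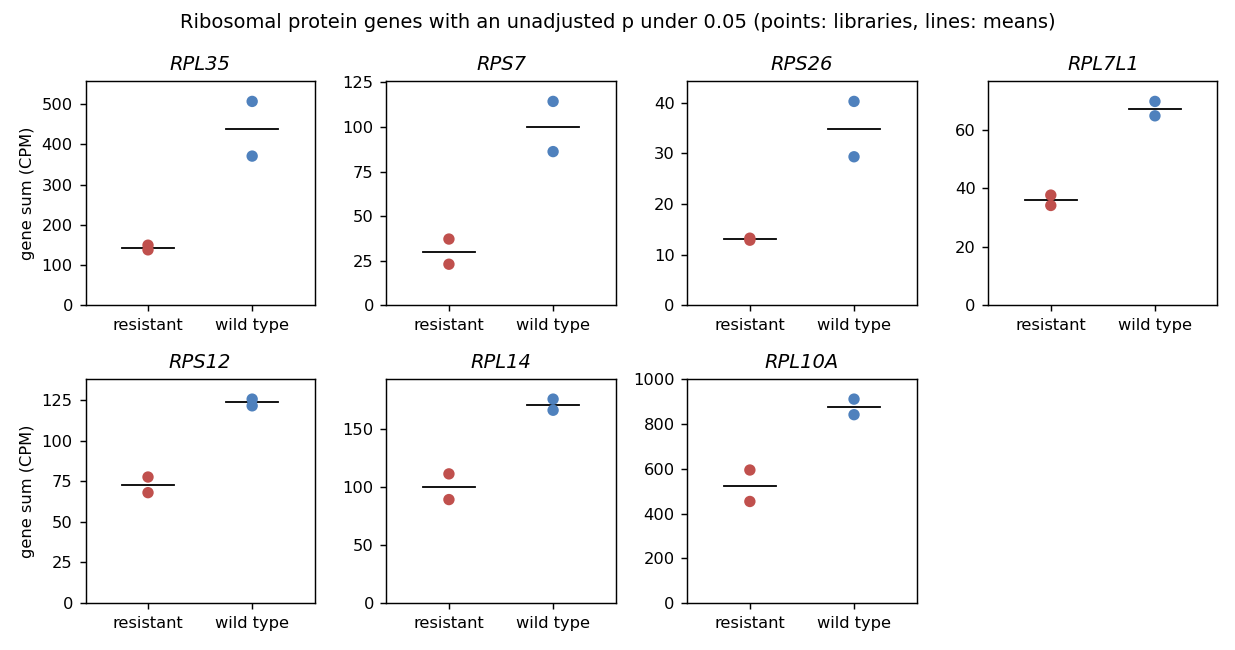
CPM of the gene sum (y axis, each panel from 0) in the resistant and wild-type libraries for 7 of the 8 members with an unadjusted edgeR p under 0.05. Points are libraries and lines are group means, and in each panel both resistant points lie below both wild-type points, although none of the members passed after adjustment.

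For 7 of the 10 members of highest mean CPM the groups overlapped. *RPS18*, the most abundant, at chr6:33272088-33276510 on the plus strand, had 1995 and 2306 CPM in resistant cells and 2686 and 3364 CPM in wild type. These groups did not overlap, with an estimate of -0.49 on the log2 scale (SE 0.24, edgeR adjusted p = 0.687). *RPL24*, at chr3:101681091-101686714 on the minus strand, had 1228 and 1376 CPM in resistant cells and 1328 and 1591 CPM in wild type, and its groups overlapped.

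*RPSA*, at chr3:39406716-39412438 on the plus strand, encodes a small-subunit protein also known as the laminin receptor and had 634 and 779.8 CPM in resistant cells and 673 and 959 CPM in wild type, again with overlap. *RPS2*, a protein near the mRNA entry channel at chr16:1962061-1964813 on the minus strand, had 559 and 306 CPM in resistant cells and 617 and 669.9 CPM in wild type. Its resistant libraries were both lower but differed from each other more than the wild-type libraries did (log2 fold change -0.57, SE 0.38, edgeR adjusted p = 0.755).

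The genes of the 5S ribonucleoprotein, *RPL5* and *RPL11*, bind MDM2 and restrain it when ribosome assembly fails. *RPL5*, at chr1:92832086-92841921 on the plus strand, had 336 and 1363 CPM in resistant cells and 1155 and 1468 CPM in wild type. Resistant replicate 1 alone was low, and without it the log2 fold change was 0.058 in place of -0.63 (SE 0.76, edgeR adjusted p = 0.871). *RPL11*, at chr1:23691806-23696412 on the plus strand, had 142 and 130.4 CPM in resistant cells and 67.0 and 104 CPM in wild type. It was 1 of the 8 members with both resistant libraries above both wild-type libraries (log2 fold change 0.67, SE 0.33, edgeR adjusted p = 0.685).

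The other 7 with that arrangement were *RPL12*, *RPL27A*, *RPL28*, *RPS3*, *RPS23*, *RPS25* and *RPS27L*. *RPS23*, whose product helps read the codon in the decoding centre, had 264 and 101 CPM in resistant cells and 71.0 and 87.5 CPM in wild type, with the highest estimate of all members, 1.20 (SE 0.57, edgeR adjusted p = 0.679). Its excess was mainly in resistant replicate 1. *RPL12*, a protein of the base of the stalk, had 211 and 248 CPM in resistant cells and 128 and 169 CPM in wild type (log2 fold change 0.63, SE 0.28, edgeR adjusted p = 0.669). Both resistant libraries of *RPL12* stood above the wild-type range.

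The stalk that recruits translation factors is built on RPLP0 with RPLP1 and RPLP2. *RPLP0*, at chr12:120196699-120201110 on the minus strand, had 122 and 128 CPM in resistant cells and 199 and 131 CPM in wild type, so that wild-type replicate 1 made most of the difference. *RPLP1* had 109.8 and 122 CPM in resistant cells and 126 and 134 CPM in wild type, and *RPLP2* had 62.9 and 77.7 CPM in resistant cells and 74.8 and 86.4 CPM in wild type. The groups did not overlap for *RPLP0* and *RPLP1* and overlapped for *RPLP2*, and the log2 fold changes were -0.40, -0.16 and -0.20 with edgeR adjusted p of 0.794, 0.896 and 0.894.

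*RPS19*, the first gene found mutated in Diamond-Blackfan anaemia, has 1 transcript in the table, at chr19:41860255-41861606 on the plus strand. It had 7.32 and 3.55 CPM in resistant cells and 8.52 and 4.04 CPM in wild type, a spread within each group larger than the difference between them (log2 fold change -0.21, SE 0.65). Among the paralogues, *RPS27L*, a p53 target at chr15:63125872-63157477 on the minus strand, had 4.60 and 4.76 CPM in resistant cells and 2.57 and 2.24 CPM in wild type. The groups were apart, with a log2 estimate of 0.96 (SE 0.42, edgeR adjusted p = 0.666). *RPL22L1*, at chr3:170865794-170868181 on the minus strand, had 3.91 and 4.26 CPM in resistant cells and 4.60 and 2.94 CPM in wild type, with overlap.

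The muscle paralogue *RPL3L* had 39 counts in resistant replicate 1 and 0 in the other 3 libraries, where a count of 0 allows up to 3 counts. *RPS3A* had a count of 1 in each library and *RPL36* had 2 and 3 counts in resistant cells and 4 and 4 in wild type.

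Libraries of the same group could disagree strongly on single genes. Of the tested members, 8 were over 2-fold apart between the resistant libraries and 9 between the wild-type libraries. The share of all genes that far apart is not given, so these counts do not set the family apart. *RPL3*, a protein near the peptidyl transferase centre at chr22:39312884-39320389 on the minus strand, had 42694 and 24730 counts in resistant cells and 68605 and 2650 in wild type. Its wild-type replicate 2 was far below the other libraries, and the log2 fold change was -0.42 with an SE of 1.49. *RPL41*, which encodes a very short basic peptide of the large subunit, had 2768 and 5419 counts in resistant cells and 1333 and 19021 in wild type. Here wild-type replicate 2 was the high library, and the log2 fold change, the lowest of all members at -1.75, had an SE of 1.40 (edgeR adjusted p = 0.797).

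Within some genes, counts passed from one transcript to another between libraries. *RPL4* (chr15:66499320-66523411, minus strand) had 92104 and 39529 counts in resistant cells and 99517 and 61070 in wild type over 13 transcripts. Its transcript ENST00000561775, 91.3% of which lies in mRNA exons, had 73801 and 0 counts in resistant cells and 77631 and 0 in wild type. ENST00000567229, which holds *SNORD18C* and *SNORD16*, had 6495 and 28652 counts in resistant cells and 5263 and 46667 in wild type. The pattern followed the replicate number and not the group.

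*RPL7A* (chr9:133348218-133351426, plus strand) had no retained-intron transcript in the table, and its sum of 80160 and 44899 counts in resistant cells and 44110 and 47279 in wild type gave a log2 estimate of 0.06 (SE 0.36, edgeR adjusted p = 0.978). ENST00000468019, which lies wholly in mRNA exons, had 59841 and 5809 counts in resistant cells and 0 in both wild-type libraries. Against 3 counts per wild-type library its mean was 8319-fold higher in resistant cells. That figure covers counting error only, and not how reads of shared exons were assigned among transcripts, so it is not a lower bound. Resistant replicate 1 held over 10 times the counts of replicate 2. ENST00000485706, which holds a snoRNA, had 4717 and 29160 counts in resistant cells and 30549 and 35160 in wild type, so it was low where ENST00000468019 was high. Over all members, 3 transcripts were at 0 in one resistant library and over 1000 in the other, and 2 were in the wild-type pair, while 0 genes were in either pair.

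**Figure D3:**
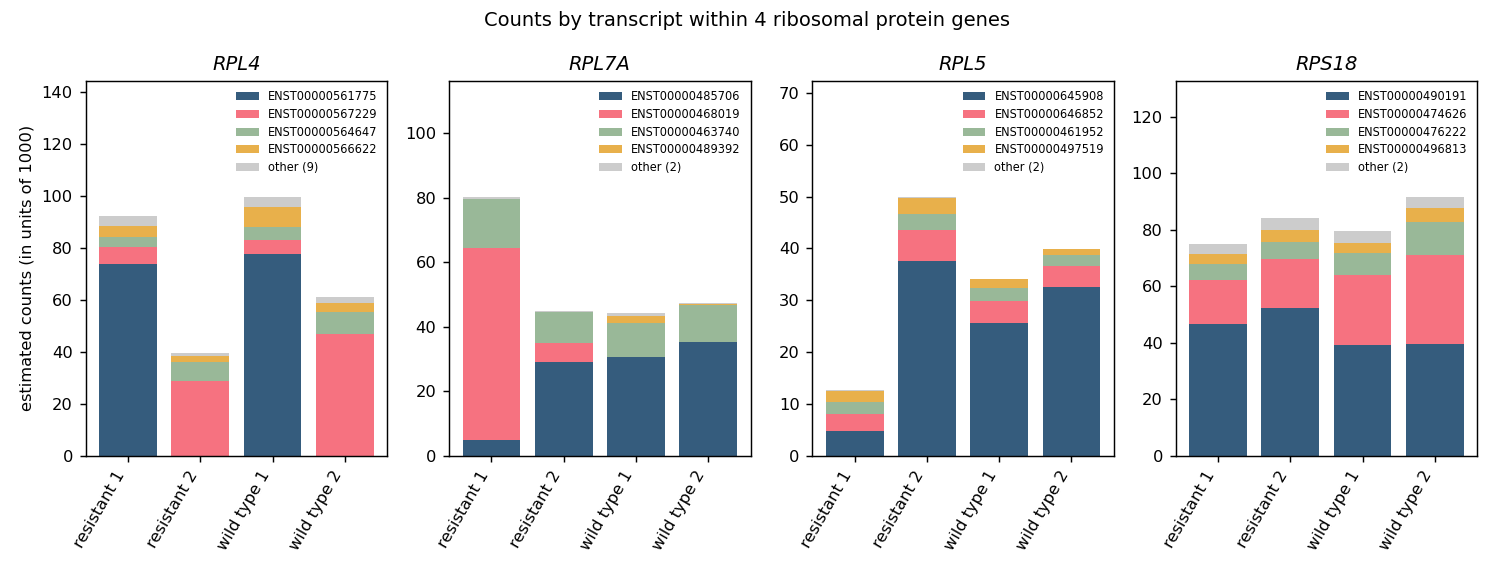
Estimated counts (in units of 1000) of *RPL4*, *RPL7A*, *RPL5* and *RPS18* in each library, stacked by transcript, with the 4 transcripts of highest mean count named and the rest pooled in grey. In *RPL4* the leading transcript of both replicates numbered 1 is at 0 in both replicates numbered 2, and in *RPL7A* ENST00000468019 is at 0 in both wild-type libraries.

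Single transcripts were tested in the same way. Of 297 transcripts, 252 were tested and 21 were at 0 in every library. The edgeR quasi-likelihood test called 0 members at an adjusted p under 0.05, as it called 0 of all 42393 transcripts (0%), and limma-voom called 0. At an unadjusted p under 0.05 there were 16 of the 252 members (6.35%), a smaller share than the 7.74% of all transcripts. Of the members, 11 were lower (4.37%, against 3.18% of all transcripts) and 5 were higher (1.98%, against 4.56%). DESeq2 called 9 members (3.57%), against 5.33% of all transcripts. Both resistant libraries were below both wild-type libraries for 81 of the 252 (32.1%), against 18.9% of all transcripts, and above for 28 (11.1%), against 21.4%. The log2 fold change was below 0 for 175, or 69.4%, against 48.9% of all transcripts. Of these, 142 of 202 retained-intron and 33 of 50 processed transcripts made up the count, with medians over all tested members of the kind of -0.24 and -0.25. Of the 43 tested transcripts that hold a snoRNA, 31 were below 0, with a median of -0.23.

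Besides the *RPL7A* transcript, 9 had an unadjusted p under 0.05 in that test and at least 1000 counts in a library, and all 9 were lower in both resistant libraries. ENST00000487431, the *RPL35* transcript whose first intron is shown above, carried 98.3% of the gene's counts, with 5462 and 4880 in resistant cells and 10807 and 13657 in wild type. ENST00000491937 made up 88.8% of *RPS7*, with 654 and 1093 counts in resistant cells and 2345 and 2906 in wild type. In both genes the gene sum was thus nearly the value of 1 transcript.

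ENST00000533161 of *RPS2*, with both of the introns shown above, had 2036 and 1478 counts in resistant cells and 5087 and 3841 in wild type (log2 fold change -1.71, SE 0.35, edgeR adjusted p = 0.367). It held 18.1% of the gene's counts, and the *RPS2* sum had a log2 fold change of -0.57. ENST00000548568 of *RPLP0*, which keeps 1 intron of 378 bases, had 666 and 402 counts in resistant cells and 1629 and 1127 in wild type (log2 fold change -1.74, SE 0.46, edgeR adjusted p = 0.475). ENST00000495002 of *RPS9*, a protein of the mRNA entry channel, had 338 and 651 counts in resistant cells and 1112 and 1584 in wild type (log2 fold change -1.82, SE 0.57, edgeR adjusted p = 0.599). Each of these was clear of the wild-type range.

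*RPS18* split by transcript. ENST00000474626, with the intron shown above, had 15573 and 17604 counts in resistant cells and 24667 and 31713 in wild type (log2 fold change -1.15, SE 0.32, edgeR adjusted p = 0.517). The processed transcript ENST00000476222 had 5932 and 5766 counts in resistant cells and 7850 and 11515 in wild type (log2 fold change -1.11, SE 0.37, edgeR adjusted p = 0.637). The most abundant transcript, ENST00000490191, had 46566 and 52216 counts in resistant cells and 39295 and 39426 in wild type, which after scaling overlapped between groups (log2 fold change -0.05, SE 0.25). ENST00000478340 of *RPL10A*, a processed transcript, had 1984 and 2500 counts in resistant cells and 4072 and 3840 in wild type. The remaining transcript of the 9 was the only one of *RPS26*, given above as its sum.

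The part of the members' counts on retained introns overlapped between the groups. The retained-intron share of all ribosomal protein counts was 64.9% and 69.6% in resistant libraries and 68.1% and 69.7% in wild-type libraries, with means of 67.3% ± 3.31 and 68.9% ± 1.14. The groups overlapped, the difference of -1.67 points was smaller than the spread of the resistant libraries, and without resistant replicate 1 it was 0.67 points. The same share over all other protein-coding genes was 65.5% ± 1.14 in resistant cells and 65.0% ± 0.630 in wild type. Transcripts holding a snoRNA took 17.3% and 26.6% of the members' counts in resistant libraries and 18.1% and 31.6% in wild-type libraries, which followed the replicate number rather than the group. Abundant transcripts weigh most in this share, and the *RPL4* transcript with *SNORD18C* described above had the same pattern. The share therefore need not describe snoRNA-holding transcripts as a class.

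Gene by gene, the share had a value that could vary in only some genes, since 38 had retained-intron transcripts alone, 10 processed transcripts alone and 28 both. A test of the share within genes (edgeR diffSpliceDGE on the retained-intron sum and the other sum of each gene) called 39 of 3557 genes (1.1%) and 0 of the 19 members it could take. At an unadjusted p under 0.05 it had *RPL17* and *RPL37A*, against 9.9% of all genes. With the library as a block, an alternative chosen after seeing the data, it called 0 genes in all. Of 25 members with both kinds and at least 100 counts in each library, 6 had a lower share in both resistant libraries, against 16.8% of all such genes, and 2 a higher one, against 15.7%. The groups overlapped in the other 17. Among those, *RPS3*, *RPS7*, *RPS25*, *RPL8* and *RPL27A* had 100% in every library, since their other transcripts had no counts, so their shares could not differ.

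*RPL26*, whose product also binds p53 mRNA, had retained-intron shares of 79.0% and 79.8% in resistant cells and 96.4% and 82.8% in wild type. Most of the gap between the groups came from wild-type replicate 1, where ENST00000583515 had 6818 counts against 1084 in wild-type replicate 2. *RPL37A* had 85.8% and 92.6% in resistant cells and 98.3% and 97.0% in wild type (diffSpliceDGE unadjusted p = 0.0323, adjusted p = 0.415). Its only processed transcript is ENST00000624436, at chr2:216529025-216529583. It had 159 and 169 counts in resistant cells and 36 and 33 in wild type, the libraries of each group lying close together. It starts beyond the introns kept whole in the gene's other transcripts, the last of which ends at chr2:216501340. Retained-intron counts of the gene were 959 and 2116 in resistant cells and 2081 and 1078 in wild type, which overlapped. The difference in share thus rested on the processed transcript.

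*RPL17*, which lines the exit tunnel, had 95.7% and 96.5% in resistant cells and 99.9% ± 0.103 over the wild-type libraries (diffSpliceDGE unadjusted p = 0.0212, adjusted p = 0.348). Its only processed transcript, ENST00000581091, had 240 and 339 counts in resistant cells and 0 and 8 in wild type. Retained-intron counts of *RPL17* overlapped between the groups. *RPL35A* and *RPL5* were lower by less than 1 point, at 98.9% ± 0.183 and 99.7% ± 0.203 in resistant cells and 99.4% ± 0.0286 and 99.9% ± 0.0269 in wild type. Neither passed the test (diffSpliceDGE adjusted p = 0.724 and 0.900). In both genes the 95% Wilson interval of resistant replicate 2 overlapped that of wild-type replicate 1. *RPL7* had 97.7% ± 0.812 in resistant cells and 98.5% ± 0.202 in wild type from 105 to 226 counts a library, where the 95% Wilson intervals reached up to 3.54 points to either side, so that no difference was detectable at this depth.

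In the other direction, *RPS18* had 92.1% and 93.2% in resistant cells and 90.1% and 87.4% in wild type, and *RPL13A*, whose introns house several snoRNAs, had 94.9% in both resistant libraries and 93.7% and 92.7% in wild type. Group means of the share differed by 3.86 and 1.74 points, and neither gene passed the test (diffSpliceDGE adjusted p = 0.661 and 0.821). For *RPL13A* the 95% Wilson intervals of both resistant libraries overlapped that of wild-type replicate 1.

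**Figure D4:**
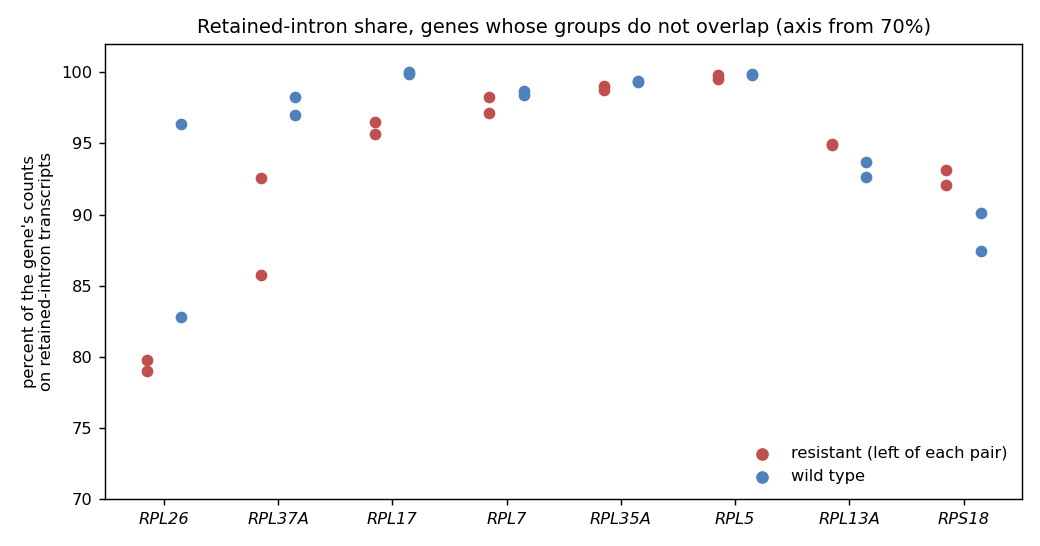
Percent of a gene's counts on retained-intron transcripts in each library for the 8 genes whose groups do not overlap, resistant left of wild type, on an axis that starts at 70%. The widest gaps are in *RPL26* and *RPL37A*, while *RPL5*, *RPL35A* and *RPL7* differ by less than 1 point.

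Genes that work with the ribosome were read from the same test for comparison, and the edgeR quasi-likelihood test called 0 of them. Mitochondrial ribosomal proteins, which serve the separate ribosome of the mitochondrion, had 58 of 78 genes in the table and 56 tested, with 16 below 0 and a median log2 fold change of 0.24. The smallest p-values were those of *MRPL43*, with 572 and 682 counts in resistant cells and 144 and 184 in wild type, and *MRPL48*, with 2308 and 2475 in resistant cells and 479 and 774 in wild type. Their log2 fold changes were 1.54 (SE 0.38) and 1.53 (SE 0.40), and their groups did not overlap.

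Ribosome biogenesis factors had 72 of 82 genes in the table and 70 tested, with 32 below 0 and a median of 0.09. *DDX10*, an RNA helicase of early ribosome assembly, had 13284 and 10369 counts in resistant cells and 3360 and 3183 in wild type (log2 fold change 1.47, SE 0.25, edgeR adjusted p = 0.349). *NMD3*, which exports the large subunit from the nucleus, had 2742 and 2594 counts in resistant cells and 421 and 650 in wild type (log2 fold change 1.92, SE 0.39, edgeR adjusted p = 0.383). Both had each resistant library above each wild-type library.

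Initiation and other translation factors had 39 of 41 genes in the table, all tested, with 15 below 0 and a median of 0.24. The smallest p-values were those of 2 subunits of initiation factor 3. *EIF3L* had 22242 and 16976 counts in resistant cells and 25731 and 26900 in wild type, and *EIF3G* had 1002 and 908 counts in resistant cells and 1561 and 1184 in wild type. They were lower in both resistant libraries, with log2 fold changes of -0.82 (SE 0.26) and -0.90 (SE 0.29). *FAU*, which encodes a ribosomal protein fused to a ubiquitin-like protein and whose name lies outside the rule, had a log2 fold change of 0.39 (SE 0.45).

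**Figure D5:**
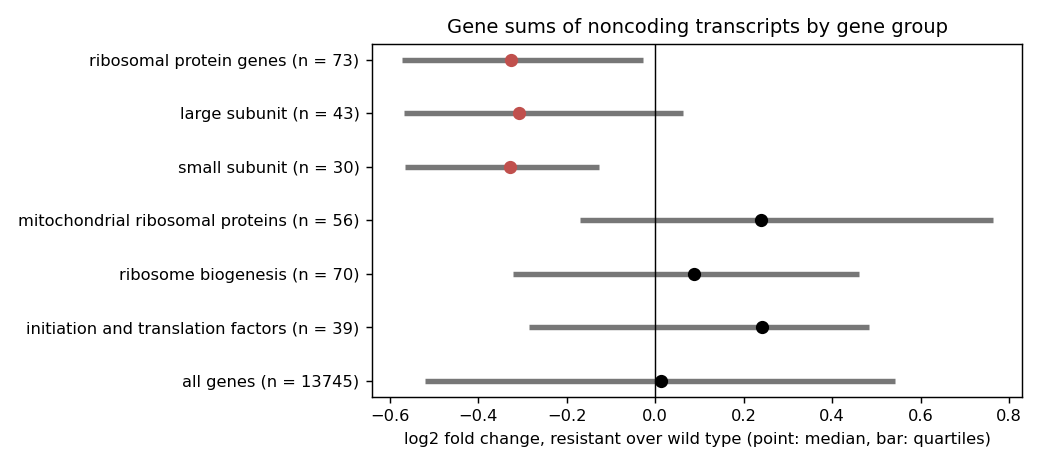
Median (point) and quartiles (bar) of the log2 fold change (resistant over wild type) of gene sums for ribosomal protein genes, both subunits, the related gene lists and all 13745 tested genes. The medians of the ribosomal protein genes and of both subunits lie near -0.3, that of all genes near 0, and those of the other lists above 0.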

How the data were processed

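Total RNA of 4 libraries was sequenced by the authors, who deposited 1 table of estimated counts per transcript as whole numbers. The unit was read from the values, since no source used here names the tool behind these estimated counts. Per the submitters' processing notes the build was mm9, a mouse assembly, while the identifiers are human Ensembl identifiers. Names, classes, positions and sequences came from GENCODE release 29 on GRCh38, and a member's sequence is that of the reference. Counts were summed per gene and tested with edgeR's quasi-likelihood method (version 4.0.16, R 4.3.3, trimmed-mean scaling, expression filter at a minimum count of 10, two-sided, Benjamini-Hochberg over all features tested, threshold 0.05). The same test was run on single transcripts, and diffSpliceDGE's gene-level test on retained-intron against other counts of each gene. The fits were also run on simulated data, whose outcome is not given here, so no statement on detectable changes rests on it. Alternatives were limma-voom (limma 3.58.1), DESeq2 1.42.0, other scalings, no filter, a replicate block and leaving out each library.

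Members and gene lists were chosen with earlier results of these data known. Named were the 10 members of highest mean CPM, those with an unadjusted p under 0.05, up to 6 per direction with non-overlapping retained-intron shares and at least 100 counts in each library, transcripts with an unadjusted p under 0.05 and at least 1000 counts, *RPL5*, *RPL11*, *RPS19*, *RPS27L* and *RPL22L1*, and 2 per related list. A few of these are not reported here. The other members with a higher or undetected level, those in the paragraph on disagreeing libraries, the stalk proteins and the transcripts beside a named one were chosen after their values were seen. A count of 0 allows 3 counts by counting error alone. Wilson intervals (95%) of library shares were within 0.118 points for the retained-intron share and 0.00429 points for the share of all counts, and cover counting error only. Tables and figures used Python 3.11.15, pandas 2.3.3 and matplotlib 3.10.9.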

Additional observations from a re-analysis of the deposited data

How the results depend on the processing

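The number of called members stayed at 0 for gene sums, transcripts and shares under other scaling, without the filter, with library totals and when any 1 library was left out, and for limma-voom where it was run. DESeq2 called 4 gene sums and 9 transcripts. The family's share of counts differed by -0.281 points against all counts and by -0.496 points against coding-gene counts, and by -0.331 to -0.231 points when 1 library was left out. The retained-intron share differed by -4.01 to 0.67 points when 1 library was left out and turned sign without resistant replicate 1. Single log2 fold changes turned sign for *RPL5* (-1.96 to 0.058 when 1 library was left out, above 0 without resistant replicate 1), *RPS19* (-0.82 to 0.43, above 0 at 0.23 and 0.43 without resistant replicate 2 or wild-type replicate 1) and *RPL22L1* (-0.17 to 0.48, below 0 without wild-type replicate 2). The cause was not tested. Of the other values under alternatives for named genes and transcripts, 236 kept their direction and side of the threshold, and 8 passed it under DESeq2. Members with a negative fold change numbered 50 to 59 over the alternatives, 59 of them out of 76 without the filter.

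The titles number the libraries 1 and 2 in both groups. Deviations of libraries with the same number had a correlation of -0.0192 over the sums of 13745 genes, so the numbers were not taken as pairs. That value does not cover single transcripts, and those of *RPL4* described above followed the replicate number. With the replicate number as a block, 0 gene sums, 0 transcripts and 0 shares were called. Under it 54 of 73 members were below 0, with a median log2 fold change of -0.30 against 0.03 for all genes. At an unadjusted edgeR p under 0.05 there were 3 members, against 8 without the block. The share of all genes at that threshold under the block is not given, so the 3 cannot be set against it. The common dispersion of 0.542 limits what 2 libraries a group can show.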
